A study of Homo sapiens with 6 samples.

Results

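The 9 genes described here are the transcription factors GATA3, FOXA1, PPARG, ELF3 and GRHL3 and the uroplakins UPK1A, UPK1B, UPK2 and UPK3A. They were chosen by name, and all 9 were found by symbol among the 16390 genes with estimated counts. RNA was sequenced in 6 libraries of SW780, an established bladder cancer line of human origin, treated as luminal in the study. The 3 Control libraries came from SW780 cells without the drug, and the 3 RC48 libraries from SW780 cells given RC48 (25 µg/ml, a dose taken from the study's methods). RC48 (disitamab vedotin) is an antibody-drug conjugate that binds HER2, the product of ERBB2, and carries a drug that blocks microtubules. The exposure time of the sequenced cells is not given in the sources used here. Every library came from 1 cell line, so the groups say nothing of other luminal tumours. Nothing in the labels says that replicates were separate cultures, so the p-values measure only the spread between these libraries, which may be technical.

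The urothelium, the lining of the bladder, is a layered epithelium whose outermost umbrella cells carry rigid plaques of uroplakin proteins on their apical membrane. UPK1A and UPK1B are tetraspanins, proteins that cross the membrane several times. UPK1A pairs with UPK2 and UPK1B pairs with UPK3A or UPK3B, and the pairs leave the endoplasmic reticulum together. GATA3, FOXA1, PPARG, ELF3 and GRHL3 are transcription factors of urothelial differentiation, and tumours that keep them and the uroplakins are called luminal.

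UPK1B and FOXA1 were the 2 members with lower levels in every RC48 library, each at about 0.74 of the Control level (fold 0.735 for UPK1B and 0.738 for FOXA1). ELF3 and the barely detected UPK3A lay above the Control range in every RC48 library. GATA3, PPARG, GRHL3, UPK1A and UPK2 overlapped between the groups. None of the 8 members that could be tested passed at an adjusted p of 0.05 (Benjamini-Hochberg) in the quasi-likelihood test of edgeR (0 of 8), beside 288 of all 13055 genes tested (2.21%). At an unadjusted p under 0.05 the count was 2 of 8, FOXA1 and UPK1B, beside 19.1% of all genes tested. DESeq2 called 1 of 8, UPK1B, beside 4.78% of all genes it tested, and limma on log2(TPM+1) of the 5 libraries with deposited TPM called 2 of 8, FOXA1 and UPK1B, beside 22.9%. The groups did not overlap in CPM (counts relative to the TMM-scaled library size) for 3 of the 8 tested members, FOXA1, UPK1B and ELF3, beside 31.5% of all genes tested. That share of members is near the share of all genes. For single members the two-sided exact permutation test cannot go below p = 0.1 with 3 against 3 libraries, and it gave 0.1 for FOXA1, UPK1B, ELF3 and UPK3A.

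**Figure D1:**
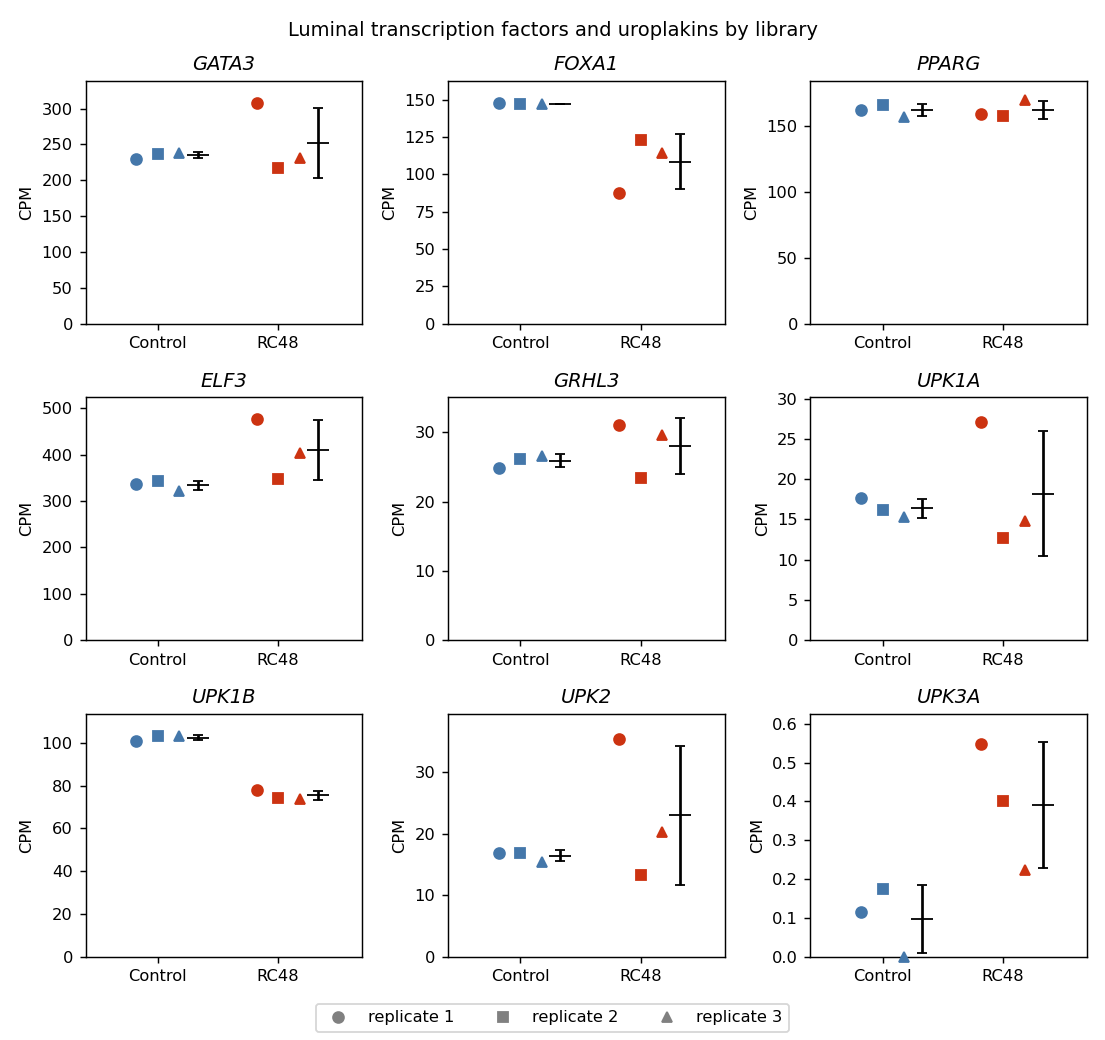
CPM of each of the 9 genes (y axis, starting at 0, own scale per panel) in the 3 Control and 3 RC48 libraries (points, shaped by replicate number), with the mean and SD of each group as a bar beside them. UPK1B lay at 73.9 to 78.0 CPM in the RC48 libraries against 101.2 to 103.5 in Control, while for GATA3, UPK1A and UPK2 RC48 replicate 1 lay above all other libraries.

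Libraries held 16453233 to 17988030 estimated counts. The RC48 libraries differed among themselves more than the Control libraries did, with a chi-square per degree of freedom of 21.7 to 130.5 between pairs, against 1.48 to 11.4. In RC48 replicate 1 the log2 ratio of a gene to the Control mean went with the GC content of its transcripts, from a median of −1.0 in the 10% of genes lowest in GC to 0.67 in the 10% highest in GC. The medians were −0.39 and 0.25 in RC48 replicate 3, and 0.021 and 0.013 in RC48 replicate 2. Since the members span 46.8% (PPARG) to 61.3% (UPK3A) GC, each difference is given also after a GC correction within each library, and the plot of fold changes adds the same without RC48 replicate 1. After that correction 7.15% of all genes tested were called with 6 libraries and 12% without RC48 replicate 1, and the members called were 1 of 8 (UPK1B) and 3 of 8 (FOXA1, UPK1A and UPK1B, all lower). Lower calls made up 2.62% and 5.42% of all genes tested in these fits.

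**Figure D2:**
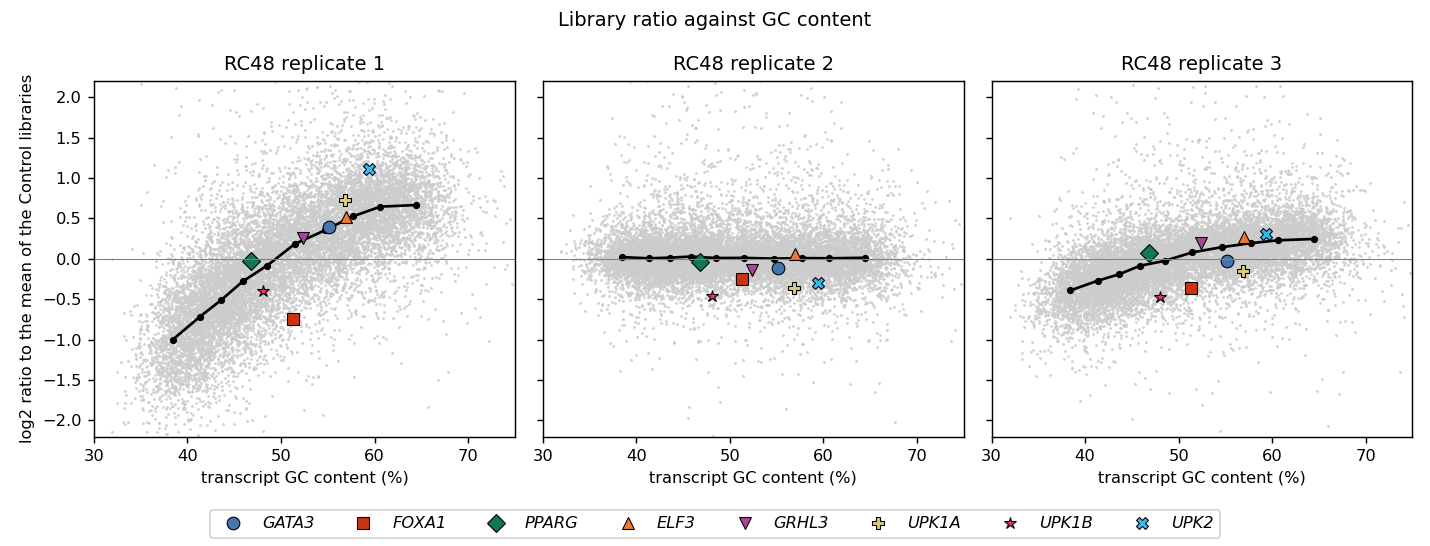
Log2 ratio of an RC48 library to the Control mean (y axis, 1 panel per RC48 library) against the median GC content of a gene's transcripts in percent (x axis), for all genes (grey), the 8 tested members (coloured markers) and the medians of genes in 10 equal groups by GC content (black line). In RC48 replicate 1 the line climbs from −1.0 to 0.67, with GATA3, ELF3 and GRHL3 close to it, UPK1A and UPK2 above it and FOXA1 below it.

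Levels between genes were compared in TPM, which is scaled by transcript length. In Control, ELF3 was the most abundant member at 209.9 ± 5.37 TPM (SD, n = 3), above 95.3% of all genes. PPARG followed at 191.8 ± 6.98 TPM, then GATA3 at 148.9 ± 9.99, UPK1B at 105.2 ± 6.53 and FOXA1 at 80.8 ± 4.30. UPK2 (46.5 ± 0.255 TPM), UPK1A (30.1 ± 1.41) and GRHL3 (18 ± 1.43) came next. UPK3A was last at 0.327 ± 0.365 TPM, with 19.5% of genes below it. Every neighbouring pair in this order was separate in the Control libraries. UPK3A was the only member under 1 TPM on average in Control. UPK3B, the other partner of UPK1B and not a member, stood at 176.7 ± 10 TPM, between PPARG and GATA3.

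The summed level of 7 luminal markers (GATA3, FOXA1, KRT20, ERBB2, UPK1A, UPK2 and PPARG) was 565.8 to 611.8 TPM in Control and 534.9 to 596.2 TPM in RC48, ranges that overlap. Each of the 7 was above 1 TPM in at least 1 library. Basal markers were also present: 12 of a list of 14 had values, and their sum was 1338.6 to 1358.7 TPM in Control and 2019.4 to 2941.4 TPM in RC48. KRT17 alone made up 885.8 to 935.1 TPM of it in Control and 1539.9 to 2533.9 TPM in RC48, and the other 11 basal markers together overlapped between the groups, at 405.2 to 472.9 and 407.5 to 479.5 TPM. Markers of blood, stromal and endothelial cells summed to 97.4 to 120.5 TPM in Control and 123.9 to 159.3 TPM in RC48, most of it the collagen gene COL3A1. Of 12 such genes, 10 had values, PTPRC, the leukocyte marker, was listed at 0 in every Control library, and DCN and PDGFRB were near 0. The RNA is from bulk cells, where fewer cells of a type and less RNA per cell cannot be told apart. The part of these lists in the members' values was not tested.

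GATA3, a zinc finger factor that marks luminal cells and is used in diagnosis of urothelial tumours, lies at chr10:8045333-8075198 (NCBI gene 2625, RefSeq, GRCh38.p14, as for all positions here). It measured 230.2, 236.2 and 238.1 CPM in the Control libraries and 308.0, 216.9 and 231.0 CPM in the RC48 libraries. RC48 replicate 1 was above and RC48 replicate 2 below every Control library, so the groups overlapped. The log2 fold change was 0.10 (SE 0.15, 95% interval −0.25 to 0.45, edgeR's adjusted p = 0.668). After the GC correction it was −0.089 (−0.27 to 0.093), and the log2 ratio of RC48 replicate 1 moved from 0.39 to −0.00089.

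FOXA1, a forkhead factor that opens chromatin for other factors and acts beside GATA3 in luminal cells, lies on the minus strand at chr14:37589552-37595249 (NCBI gene 3169). Its CPM was nearly the same in the Control libraries, at 147.4, 146.8 and 147.0. The RC48 libraries held 87.7, 123.2 and 114.6 CPM, every one below every Control library, with RC48 replicate 1 the lowest. That pattern, below in every library, was found in 14.1% of all genes tested. This gave a log2 fold change of −0.44 (SE 0.15, −0.78 to −0.10, edgeR's adjusted p = 0.194). The difference did not shrink with the GC correction (−0.50, adjusted p = 0.0824 in edgeR), and with that correction and without RC48 replicate 1 it was −0.35 (−0.51 to −0.18, adjusted p = 0.0142 in edgeR). Without the correction, leaving out RC48 replicate 1 gave −0.31 (edgeR's adjusted p = 0.0765) and leaving out RC48 replicate 2, where 28.3% of all genes tested were called, −0.54 (0.0342). Leaving out RC48 replicate 3 or any 1 Control library gave edgeR's adjusted p = 0.417 to 0.513. In those fits 68 to 93 of all genes were called, against 288 with 6 libraries. The log2 fold change of FOXA1 was then −0.50 to −0.44. FOXA1 shares exon sequence with TTC6 on the opposite strand, and whether counting used strand is not stated. TTC6 was low, at 5.42 ± 1.05 CPM in Control and 3.62 ± 1.13 CPM in RC48. The 250 bases before the start of FOXA1 (minus strand, chr14:37595250-37595499) are shown, 5′ to 3′, because FOXA1 was the one transcription factor among the members below Control in every RC48 library.
FOXA1: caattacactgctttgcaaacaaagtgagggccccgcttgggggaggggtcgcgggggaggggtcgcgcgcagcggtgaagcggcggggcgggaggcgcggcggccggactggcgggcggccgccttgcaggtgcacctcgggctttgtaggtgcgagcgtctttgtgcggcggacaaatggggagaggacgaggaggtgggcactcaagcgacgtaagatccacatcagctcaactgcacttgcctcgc

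PPARG, the nuclear receptor that drives fatty acid genes and the urothelial differentiation programme, lies at chr3:12287368-12434344 (NCBI gene 5468). Its values were 162.0, 166.1 and 157.0 CPM in Control and 158.8, 157.7 and 169.6 CPM in RC48. The groups overlapped, with means of 161.7 ± 4.55 and 162.0 ± 6.59 CPM. Its log2 fold change was 0.0032 (SE 0.10, −0.24 to 0.25, edgeR's adjusted p = 0.984), and after the GC correction it was 0.073 (−0.12 to 0.27). In TPM the means were 191.8 ± 6.98 in Control and 179.5 ± 16 in RC48, and the sign of so small a difference changed with the scaling. The 250 bases before the start at its listed gene boundary (plus strand, chr3:12287118-12287367, 1 of 6 listed starts) are shown. They hold the nuclear receptor motif AGGTCA, in capitals, 2 times, at 217 and 184 bases before the start.
PPARG: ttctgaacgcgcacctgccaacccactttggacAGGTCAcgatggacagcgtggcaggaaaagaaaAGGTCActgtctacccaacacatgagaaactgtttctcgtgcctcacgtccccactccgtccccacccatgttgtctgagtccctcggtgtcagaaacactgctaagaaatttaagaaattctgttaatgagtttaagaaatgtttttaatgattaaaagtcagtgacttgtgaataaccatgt

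ELF3, an ETS factor of terminal epithelial differentiation that is often mutated in bladder cancer, lies at chr1:202010587-202017183 (NCBI gene 1999). It measured 335.9, 343.0 and 322.7 CPM in Control and 477.1, 348.3 and 403.3 CPM in RC48. All RC48 libraries were above all Control libraries, as for 17.4% of all genes tested, though RC48 replicate 2 was only just above the highest Control library. The log2 fold change was 0.29 (SE 0.14, −0.025 to 0.61, edgeR's adjusted p = 0.276). After the GC correction it was 0.061 (−0.10 to 0.23), and the ratio of RC48 replicate 1 moved from 0.52 to 0.018 on the log2 scale. Without RC48 replicate 2, where 28.3% of all genes tested were called, the log2 fold change was 0.40 and passed (edgeR's adjusted p = 0.0477).

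GRHL3, a grainyhead-like factor needed for umbrella cell maturation and the epithelial barrier, lies at chr1:24319357-24364482 (NCBI gene 57822). Control libraries held 24.9, 26.2 and 26.6 CPM and RC48 libraries 31.0, 23.4 and 29.6 CPM. RC48 replicate 2 was below and the other RC48 libraries above the Control range. RC48 against Control gave a log2 fold change of 0.11 (SE 0.15, −0.23 to 0.46, edgeR's adjusted p = 0.626) and 0.0058 after the GC correction (−0.21 to 0.22). The 250 bases before the start at its listed gene boundary (plus strand, chr1:24319107-24319356, 1 of 2 listed starts) are shown. They hold the GATA factor motif GATAA 2 times, in capitals and both read on the other strand as TTATC, at 200 and 169 bases before the start.
GRHL3: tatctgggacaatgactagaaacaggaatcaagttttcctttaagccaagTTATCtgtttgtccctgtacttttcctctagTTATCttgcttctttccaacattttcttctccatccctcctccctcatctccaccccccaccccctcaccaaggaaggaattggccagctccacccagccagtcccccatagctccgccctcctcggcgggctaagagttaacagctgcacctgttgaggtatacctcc

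Among the uroplakins, UPK1A, the tetraspanin partner of UPK2, lies at chr19:35666517-35678481 (NCBI gene 11045). It measured 17.7, 16.2 and 15.3 CPM in Control and 27.1, 12.7 and 14.8 CPM in RC48. RC48 replicate 1 was above every Control library and the other RC48 libraries were below them. The log2 fold change was 0.15 (SE 0.28, −0.49 to 0.79, edgeR's adjusted p = 0.732). After the GC correction it was −0.12 (−0.49 to 0.26). Without RC48 replicate 1 it was −0.26 before that correction (edgeR's adjusted p = 0.279) and −0.35 after it (−0.57 to −0.13, adjusted p = 0.0471). The sign was thus not the same in all fits, with or without RC48 replicate 1.

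UPK2, the single-pass partner of UPK1A, lies at chr11:118956298-118958559 (NCBI gene 7379). Its Control values were close, at 16.9, 16.9 and 15.3 CPM, and its RC48 values were spread, at 35.4, 13.2 and 20.2 CPM. RC48 replicate 1 held more than the other RC48 libraries and RC48 replicate 2 was below every Control library. The log2 fold change was 0.49 (SE 0.32, −0.26 to 1.23, edgeR's adjusted p = 0.365), and after the GC correction 0.14 (−0.27 to 0.56). It was 0.028 without RC48 replicate 1 (edgeR's adjusted p = 0.941) and 0.76 without RC48 replicate 2 (0.0403), where 28.3% of all genes tested were called. UPK2 has the highest GC content of the tested members, 59.4%. It shares exon sequence with BCL9L on the opposite strand, a gene of 129.1 ± 3.72 CPM in Control and 192.7 ± 48.7 CPM in RC48 that was above Control in every RC48 library (log2 fold change 0.58, edgeR's adjusted p = 0.174). Without strand, reads of the pair in the shared stretch cannot be told apart. ELF3, UPK1A and UPK1B also overlap annotated genes that were not analysed here.

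In UPK1A and UPK2, RC48 replicate 1 was highest and RC48 replicate 2 lowest of the RC48 libraries, an order that GATA3, ELF3, GRHL3 and UPK3B also had. The TPM ratio of the pair, UPK1A to UPK2, was 0.676, 0.623 and 0.641 in Control and 0.518, 0.622 and 0.481 in RC48. Means were 0.647 ± 0.0270 and 0.540 ± 0.0734, and RC48 replicates 1 and 3 were below every Control ratio. These ratios carry no GC correction. RC48 replicate 2 (0.622) could not be told apart from Control replicate 2 (0.623), since its TPM was computed here from counts, with a median error of 0.0355 log2 units where this could be checked.

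UPK1B, the tetraspanin partner of UPK3A and UPK3B, lies at chr3:119173598-119205143 (NCBI gene 7348). Control libraries held 101.2, 103.2 and 103.5 CPM, and RC48 libraries held 78.0, 74.5 and 73.9 CPM. Every RC48 library was below every Control library, and the 3 log2 ratios to the Control mean were −0.40, −0.46 and −0.47. With all libraries and no correction, the log2 fold change was −0.44 (SE 0.11, −0.69 to −0.20, edgeR's adjusted p = 0.0951). It passed at 0.05 after the GC correction (−0.42, −0.60 to −0.24, edgeR's adjusted p = 0.0175) and after that correction without RC48 replicate 1 (−0.47, −0.63 to −0.32, edgeR's adjusted p = 0.00167). It passed also without the correction when RC48 replicate 1 was left out (edgeR's adjusted p = 0.0119), where 6.82% of all genes tested did. With RC48 replicate 2 left out it passed too (edgeR's adjusted p = 0.036), where 28.3% of all genes tested did. It did not pass with RC48 replicate 3 (0.376) or any 1 Control library left out (edgeR's adjusted p = 0.322 to 0.435). In those fits its log2 fold change was −0.46 to −0.44. They called 68 to 93 of all genes, against 288 with 6 libraries. UPK1B was called in 6 of the 19 alternatives, FOXA1 in 3, and no other member in more than 1. The 250 bases before its start (plus strand, chr3:119173348-119173597) are shown beside those of its paralog UPK1A (plus strand, chr19:35666267-35666516), since UPK1B was below Control in every RC48 library and UPK1A overlapped with it.
UPK1B: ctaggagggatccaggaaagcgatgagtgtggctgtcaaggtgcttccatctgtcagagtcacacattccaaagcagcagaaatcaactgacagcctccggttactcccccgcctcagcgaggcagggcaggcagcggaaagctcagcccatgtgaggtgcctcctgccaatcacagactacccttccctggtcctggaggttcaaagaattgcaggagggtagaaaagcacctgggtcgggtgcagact
UPK1A: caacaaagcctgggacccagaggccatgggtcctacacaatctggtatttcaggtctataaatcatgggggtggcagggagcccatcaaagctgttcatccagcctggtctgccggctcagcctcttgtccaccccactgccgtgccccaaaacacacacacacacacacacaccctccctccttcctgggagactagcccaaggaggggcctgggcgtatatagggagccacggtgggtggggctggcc

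UPK3A, the single-pass partner of UPK1B, lies at chr22:45284949-45295874 (NCBI gene 7380). It held 2, 3 and 0 estimated counts in the Control libraries and 9, 7 and 4 in the RC48 libraries. Every RC48 library was above every Control library, at a level where a few reads decide the order. The gene did not pass the filter on low counts and was not tested. Over the groups, 20 against 5 counts gave a ratio of 3.8 after scaling by library size (exact 95% interval 1.38 to 13, counting error only). UPK3A stayed at or under 1.24 TPM in all 6 libraries.

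For the other partner, the TPM ratio of UPK1B to UPK3B was 0.559, 0.554 and 0.682 in Control and 0.3, 0.501 and 0.426 in RC48. Every RC48 ratio was below every Control ratio (0.598 ± 0.0721 and 0.409 ± 0.102, two-sided exact permutation p = 0.1, the smallest possible), with the value of RC48 replicate 2 again resting on computed TPM. No ratio here carries the GC correction, and the lowest was in RC48 replicate 1, where GC dependence was strongest. With that correction the log2 fold change of UPK3B moved from 0.19 to −0.17, and that of UPK1B from −0.44 to −0.42. UPK1B to UPK1A was 3.51 ± 0.3 in Control and 2.59 ± 0.814 in RC48 (exact permutation p = 0.2), and the groups overlapped. Estimated counts of UPK3B were whole numbers in every library. Those of UPK3BL1 and UPK3BL2 held fractions in every library, as where counting splits reads between genes, so their values are uncertain. How far like genes share reads was not tested.

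**Figure D3:**
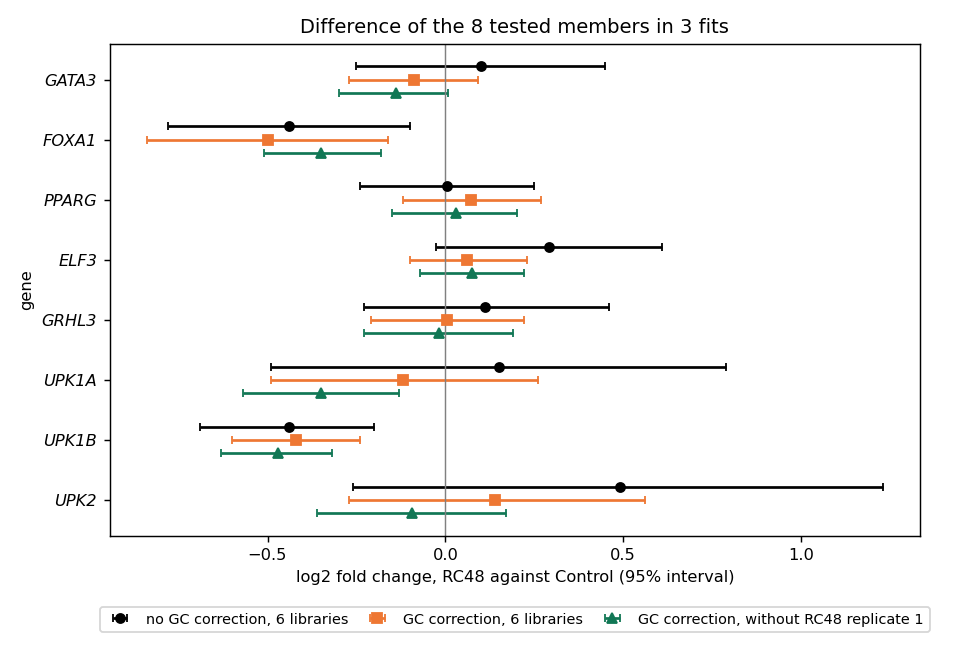
Log2 fold change of RC48 against Control (x axis) with its 95% interval for the 8 tested members (y axis), from edgeR without GC correction (black circles), with it (orange squares) and with it but without RC48 replicate 1 (green triangles). FOXA1 and UPK1B lie below 0 with their whole interval in all 3, while GATA3, UPK1A and UPK2 move to the left of 0 or toward it as RC48 replicate 1 and the GC dependence are taken out.

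Promoters were found in the RefSeq table for 7 of the 9 members (all but UPK2 and UPK3A). They were searched on both strands, over the 250 bases before the first listed start, for GATAA (GATA factors), TGTTTAC (forkhead factors), AGGTCA (nuclear receptors), AACCGGTT (grainyhead-like factors) and GGAAGT (ETS factors). The shares of all 35116 promoters holding them were 20.4%, 3.0%, 12.1%, 0.1% and 19.5%, and none of these motifs contains another. The matches in PPARG and GRHL3 shown above were the only ones. The windows of GATA3, FOXA1, ELF3, UPK1A and UPK1B hold none of these letters, which says nothing of the factors.

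For each tested member, the gene with the closest log2 CPM profile over the 6 libraries, centred on its own mean, was sought among 9988 genes. FOXA1 was nearest to OXCT1 (root mean square distance 0.0167 log2 units), ELF3 to COMMD9 (0.0162) and PPARG to AKAP8 (0.0167). GATA3 was nearest to ZBTB7B (0.0209) and GRHL3 to SLC35C1 (0.0256). UPK1A was nearest to CENPM (0.0350) and UPK2 to COX8A (0.0582). UPK1B was nearest to SLC14A1 (0.0382), which encodes the urea transporter of the urothelium and red cells. These profiles share library depth and GC dependence, and the distances are a description.

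Of 30 other epithelial and urothelial transcription factors, 28 were tested, 18 with a lower and 10 with a higher value, and the median log2 fold change was −0.18, beside 0.016 over all genes tested and 0.11 over the 8 members. After the GC correction these medians were −0.29, −0.0058 and −0.041. The count that passed edgeR's test without that correction was 1 lower and 0 higher, beside 2.21% of all genes tested. BHLHE41, a basic helix-loop-helix repressor of the circadian clock, fell from 223.0 ± 12.9 to 117.5 ± 19.3 CPM (log2 fold change −0.92, SE 0.15, edgeR's adjusted p = 0.0208). The call was lost when any 1 Control library or RC48 replicate 3 was left out (edgeR's adjusted p = 0.119 to 0.148). Its log2 fold change was then −0.96 to −0.88, in fits that called 68 to 93 of all genes. KLF5, a zinc finger factor of epithelial growth, was at 354.8 ± 6.75 and 241.8 ± 64.4 CPM (−0.55, edgeR's adjusted p = 0.194). It was below Control in every RC48 library, as for 14.1% of all genes tested. EHF and SOX4 overlapped between the groups. After the GC correction 3 were called, all lower (BHLHE41, GATA2 at −0.55 and CEBPA at −0.34), beside 2.62% of all genes tested called lower.

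PPARG acts with RXRA and coactivators, and of 12 such partners and cofactors 11 were tested. PPARGC1B, a coactivator of mitochondrial genes, fell from 20.7, 19.7 and 25.3 CPM to 11, 13.8 and 11.1 CPM (log2 fold change −0.87, SE 0.17, edgeR's adjusted p = 0.0438). It was the only call among them, beside 2.21% of all genes tested. It did not pass when any 1 Control library or RC48 replicate 3 was left out (edgeR's adjusted p = 0.166 to 0.241). Its log2 fold change was then −0.94 to −0.76, in fits that called 68 to 93 of all genes. RXRA and NCOA3, among the most abundant, overlapped between the groups. RXRA was called lower after the GC correction (−0.44, edgeR's adjusted p = 0.0359), though its CPM was 227.3 ± 7.92 and 211.1 ± 36.5. Of 12 PPAR target genes, 11 were tested and 0 were called by edgeR, with 3 at an unadjusted p under 0.05 (19.1% of all genes tested). Their median was −0.20, and −0.10 after the GC correction. The fatty acid carrier FABP4 was at 441.4 ± 25.9 CPM in Control and 385.0 ± 37.9 in RC48 (adjusted p = 0.340 in edgeR). FABP5 and ACSL1 were below Control in every RC48 library, as for 14.1% of all genes tested (log2 fold changes −0.35 and −0.27, edgeR's adjusted p = 0.265 and 0.294). CD36, a fatty acid transporter, was called lower after the GC correction (−1.14, edgeR's adjusted p = 0.0263).

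Of 20 further luminal tumour markers, 18 were tested and 2 passed, both lower, beside 2.21% of all genes tested. KRT20, the keratin of umbrella cells, fell from 1.97, 2.03 and 1.94 CPM to 0.486, 0.514 and 1.00 CPM (log2 fold change −1.55, SE 0.31, edgeR's adjusted p = 0.0489). That call rests on few reads, 34, 35 and 33 estimated counts in Control and 8, 9 and 18 in RC48. With library sizes alone KRT20 did not pass (edgeR's adjusted p = 0.0513). TMEM97, a sterol-regulated membrane protein, fell from 95.8 ± 1.47 to 62.2 ± 4.51 CPM (−0.62, SE 0.12, edgeR's adjusted p = 0.0393). With any 1 Control library left out KRT20 did not pass (edgeR's adjusted p = 0.215 to 0.232), nor did TMEM97, which failed also without RC48 replicate 3 (0.203 to 0.254). These fits called 68 to 93 of all genes. In those where each failed, log2 fold changes were −1.56 to −1.53 for KRT20 and −0.65 to −0.61 for TMEM97. The median of the list was 0.14, with 12 of the 18 higher in value. After the GC correction the median was −0.088, so its sign depended on that correction. KRT7, the most abundant, was at 5301.5 ± 441.8 and 7634.1 ± 1680.8 CPM (0.53, edgeR's adjusted p = 0.188). It was above Control in every RC48 library, as for 17.4% of all genes tested. KRT19 and KRT8 overlapped between the groups. After the GC correction SNX31 (−0.51) joined KRT20 and TMEM97.

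Of 14 basal tumour markers, 12 were tested and 1 was called, beside 2.21% of all genes tested. KRT17, a keratin of basal and injured epithelium, rose from 627.3 ± 50.5 to 1477.1 ± 524.9 CPM (log2 fold change 1.24, SE 0.24, edgeR's adjusted p = 0.0460), and its value in RC48 replicate 1, 2060.1 CPM, was the highest. With any 1 Control library or RC48 replicate 3 left out it did not pass (edgeR's adjusted p = 0.143 to 0.282). Its log2 fold change was then 1.17 to 1.28, in fits that called 68 to 93 of all genes. After the GC correction it was 0.88 (edgeR's adjusted p = 0.00138), and 0.79 without RC48 replicate 1 as well (6.8e-05). KRT17 was called in 14 of the 19 alternatives. KRT17 has near-identical pseudogenes that can share its reads, so its level is uncertain, though its estimated counts were whole numbers in every library. Sharing of reads was not tested. EGFR and CD44 overlapped between the groups. The 3 other uroplakins gave 0 calls with edgeR, with 0 at an unadjusted p under 0.05: UPK3B was at 125.5 ± 12.7 and 142.8 ± 43.3 CPM, with log2 fold changes of 0.19 for UPK3B, 0.55 for UPK3BL1 and 0.18 for UPK3BL2. After the GC correction these were −0.17, 0.23 and −0.16. With that correction and without RC48 replicate 1 they were −0.22, −0.039 and −0.38. Of the 7 tested markers of other cell types, 0 were called by edgeR and 5 had an unadjusted p under 0.05. Over all genes tested these shares were 2.21% and 19.1%. COL3A1 was above Control in every RC48 library (280.5 ± 18.2 and 411.6 ± 47.6 CPM), as was COL1A1 (9.80 ± 0.539 and 16.3 ± 3.69 CPM). That pattern was found in 17.4% of all genes tested, and its reverse in 14.1%. CD3E and CD14, markers of T cells and monocytes, were above Control in every RC48 library at no more than 1.40 CPM (log2 fold changes 1.64 and 1.42, edgeR's adjusted p = 0.113 and 0.161). PECAM1 was below Control in every RC48 library (19.2 ± 0.776 and 14.2 ± 1.21 CPM). After the GC correction PECAM1 (−0.47, edgeR's adjusted p = 0.0259) and VWF (−0.79, 0.0215) were called lower.

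**Figure D4:**
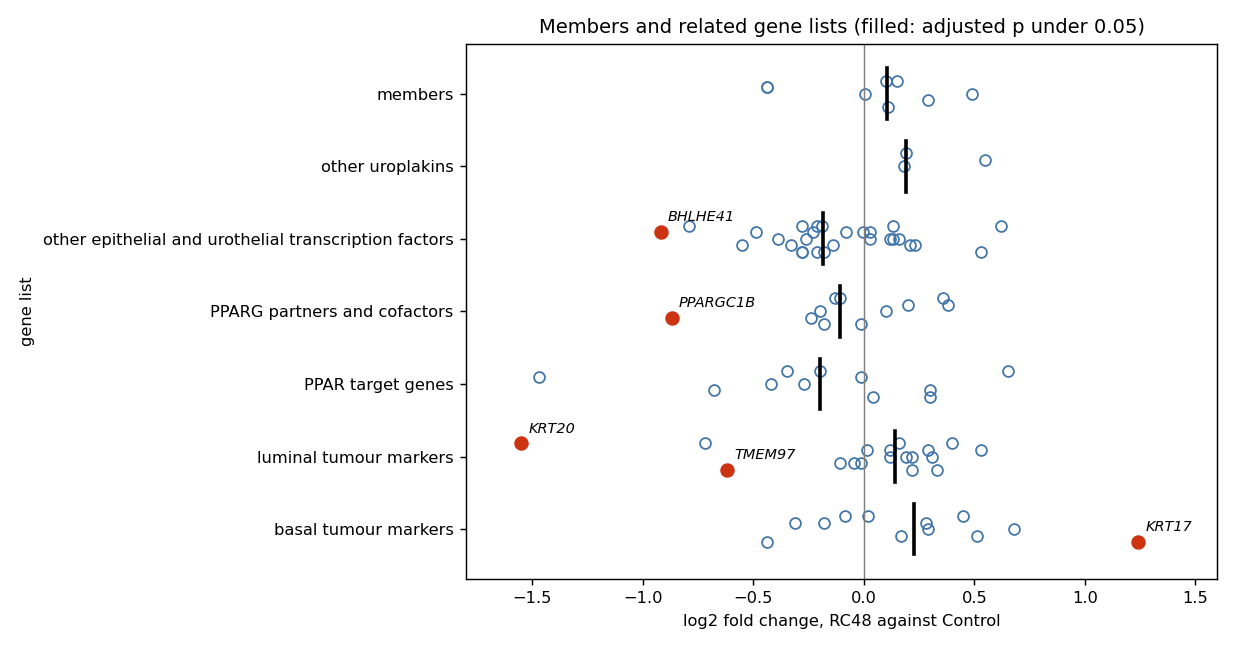
Log2 fold change of RC48 against Control (x axis) for the 8 tested members and the genes of 6 related lists (y axis), with filled points for genes past edgeR's adjusted p of 0.05 and a black bar at each list's median. The members run from −0.44, where FOXA1 and UPK1B coincide, to 0.49, with none filled, and the filled points are BHLHE41, PPARGC1B, KRT20, TMEM97 and KRT17. All values shown are without the GC correction.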

How the data were processed

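RNA of SW780 cells had been sequenced in 3 Control and 3 RC48 libraries by the authors, who mapped reads with Bowtie2 and quantified genes with RSEM (build hg38 per the labels; versions are not given in the sources used here). The deposited values are RSEM estimated counts, not normalized, for 6 libraries, and TPM, which the authors scaled by length and depth, for 5. TPM of RC48 replicate 2 was computed from its counts and the lengths the other libraries imply, over genes with at least 20 counts. Checked on RC48 replicate 3, these steps missed the deposited TPM by 0.0355 log2 units (median absolute, 12037 genes).

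After rounding to whole numbers, counts went through filterByExpr and TMM scaling to the quasi-likelihood test of edgeR, without covariates (R 4.3.3, edgeR 4.0.16, threshold 0.05 after Benjamini-Hochberg adjustment over all genes tested). It was preferred to the study's limma, run as an alternative (limma 3.58.1, TPM of at least 1, pseudocount 1), because TPM was at hand for 5 of 6 libraries; DESeq2 1.42.0 was another. The GC correction subtracted a loess curve (span 0.3) of log2 CPM on median transcript GC content (GENCODE v29; 99.4% of genes had a value). Gene positions and promoters came from RefSeq GRCh38.p14. Scripts were tested on simulated counts. Nothing in the labels says that replicate numbers pair the samples. Deviations from the group means of same-numbered libraries had correlations of 0.106, −0.265 and −0.0762. These deviations include the GC dependence of the RC48 libraries, so they cannot settle whether samples were paired.

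The 9 members and all gene lists were chosen with earlier results of these data known. Named were the members, every called gene of each list and, where fewer than 3 were called, its 3 most abundant genes, and each tested member's nearest profile among genes of at least 10 CPM. CD3E, CD14 and a few further list genes called after the GC correction were chosen after their values were seen. Some genes that this rule names are not reported here. For single values two-sided exact permutation tests were used. Alternatives numbered 19, of which 6 leave out a library. Intervals on counts cover counting error only.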

Additional observations from a re-analysis of the deposited data

How the results depend on the processing

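All-gene calls numbered 288, against 676 with DESeq2, 929 with the GC correction, 685 with it and the replicate block, 1573 with it and without RC48 replicate 1, 2836 with limma on 5 libraries (where the median log2 fold change of all genes was −0.11) and 68 to 3726 with 1 library left out. Members called numbered 0, against 1 (DESeq2), 1 (GC correction), 3 (GC correction without RC48 replicate 1), 2 (limma, 5 libraries) and 0 to 4 with 1 library left out: 1 without RC48 replicate 1 and, without RC48 replicate 2, where 28.3% of all genes were called, FOXA1 and UPK1B lower and ELF3 and UPK2 higher. Related list genes called numbered 5, against 8 (DESeq2), 3 (library sizes alone), 11, 9 and 16 in the 3 GC fits in the order above, 19 (limma, 5 libraries), 3, 3 and 1 (limma on 6 libraries with pseudocount 1, pseudocount 0.1 and no filter) and 0 to 20 with 1 library left out. The cause of these shifts was not tested.

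Over 152 member values, 117 kept their direction and side of the threshold, 11 kept the direction and passed, and 24 changed sign. FOXA1, ELF3 and UPK1B never changed sign. GATA3 was −0.089, −0.09 and −0.14 in the GC fits and −0.075 to 0.20 with 1 library left out (lowest without RC48 replicate 1). UPK1A was −0.12, −0.14 and −0.35 in the GC fits, −0.046, −0.049 and −0.046 in limma on 6 libraries and −0.26 (without RC48 replicate 1) to 0.35 with 1 library left out. GRHL3 (−0.019) and UPK2 (−0.093) did so with the GC correction without RC48 replicate 1. PPARG was −0.019 with DESeq2, −0.0081 with RLE size factors, −0.058 with library sizes alone, −0.01 without a filter, −0.0077 at 10 counts or more in every library, −0.14 with limma on 5 libraries, −0.10 in each limma fit on 6, −0.019 without Control replicate 3 and −0.055 (without RC48 replicate 3) to 0.021 with 1 library left out.

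Whether same-numbered samples belong together is not stated in the labels. With the replicate block 331 genes and 0 members were called. UPK1B had edgeR's adjusted p = 0.0551 with the GC correction and the block. With 3 libraries a group, calls depend on single libraries, and RC48 replicate 1 had the strongest GC dependence. UPK3A was too low to be tested at this depth. UPK3BL1, UPK3BL2, KRT17 and the antisense overlaps of FOXA1 and UPK2 rest on the authors' counting.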
